A study of Mus musculus with 18 samples.

Results

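The Siglecs are receptors of the immunoglobulin family that bind sialic acid, the sugar that caps many glycans of cell surfaces. The genes described here are Siglec1, Cd33, Siglece, Siglecf, Siglecg and Siglech. They were chosen by name, as the probe sets annotated with 1 of these symbols alone. Each gene had 1 probe set, so that the group comprised 6 of 19752 genes. No probe set with several symbols named any of them. Levels were followed over 9 immune cell populations, each measured on 2 Affymetrix arrays.

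All cells came from male C57BL/6 mice of 6 weeks, given 10000 U of interferon gamma (IFNg) under the skin and sampled at 2 h. The myeloid populations were Ly6G+ granulocytes of the spleen (GN), macrophages of the peritoneal cavity, sorted on ICAM2 and on the antigen encoded by Adgre1 (MF) and CD11c+ MHCII+ Flt3+ dendritic cells of the spleen (DC). The lymphoid populations, all from spleen, were NK1.1+ cells with the exclusion marker TCRB- (NK), NK1.1+ TCRB+ cells (NKT), CD4+ TCRB+ cells (T4), CD8+ TCRB+ cells (T8), TCRgd+ cells with the same exclusion marker (Tgd) and CD4+ TCRB+ CD25+ cells (Treg). Every animal was treated, and untreated animals were not analysed here, so the comparisons below are between cell types and give no response to IFNg. MF were the population from another site, and for them site and cell type cannot be told apart. No label ties the arrays of a population to different mice. The p-values therefore reflect the spread between arrays alone, and that spread may be technical.

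Most Siglecs carry inhibitory motifs in their cytoplasmic tails, known as ITIMs, which recruit the phosphatases SHP-1 (Ptpn6) and SHP-2 (Ptpn11) and dampen activating signals. Siglec1 (sialoadhesin, CD169) has no such motif and acts mainly in adhesion and capture, and it is known as an interferon-inducible gene of macrophages. Siglech has no ITIM either and signals through the adaptor DAP12 (Tyrobp). By common use in the mouse, Siglecf marks eosinophils and alveolar macrophages, Siglecg B cells, and Siglech plasmacytoid dendritic cells. Cd33 and Siglece are known from granulocytes and other myeloid cells. In the RefSeq gene table of assembly GRCm38.p6, Siglecf and Siglecg are neighbours on chromosome 7, Cd33 and Siglece lie further along it, and Siglech lies on it beyond 190 other protein-coding genes. Siglec1 is on chromosome 2.

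Levels are log2 intensities of the deposited values, and the median of all gene values was 7.19. On this platform the level of 1 probe set cannot be set against that of another, so levels were compared for 1 gene at a time. The median of all gene values is given as a mark on the scale and not as a limit of detection. The median intensity lay between 138.5 and 151.0 on all 18 arrays, and arrays of the same population correlated with r of 0.9901 to 0.996. The number of arrays limits the precision. Of the marker lists, 9 of 9 GN markers were highest in GN, 7 of 7 MF markers in MF, 6 of 6 DC markers in DC, 5 of 5 NK markers in NK and 4 of 4 Treg markers in Treg. Of the 3 NKT markers 1 was highest in NKT. Of the T4 markers Cd4 and Cd3e were highest in T4 and Cd40lg in NKT. Of the T8 markers Cd8a and Cd8b1 were highest in T8 and Cd3e in T4. For Tgd only 2 markers were measured. Cd3e was highest in T4, and Sox13 was highest in Tgd with a range of 0.89, under 2-fold. The DC arrays differed from each other, however. On DC replicate 2, 141 of 19752 genes were at least 2-fold above replicate 1. All 9 GN markers were among them, with a median difference of 2.06, against -0.01 over all genes. Their summed intensity was between 64100 and 74000 in GN, 1830 and 1840 in MF, 4620 and 17000 on DC replicates 1 and 2, and between 517 and 833 in the lymphoid populations. Results that rest on DC are therefore given with and without DC replicate 2 where that changes them. A summed intensity is set mostly by the brightest genes of its list. In MF, Csf3r averaged 10.45 and S100a9, the next GN marker, 6.53. In sorted bulk samples, fewer cells of a type and less RNA per cell cannot be told apart.

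All 6 genes differed over the 9 populations. The test was limma's moderated F test, and a call needed both an adjusted p under 0.05 (Benjamini-Hochberg, all genes) and a highest population mean at least 2-fold above the lowest. By that rule 6 of 6 Siglec genes passed, against 39.0% of all genes. Cd33 had the widest range, 6.55 (93.9-fold), followed by Siglece at 5.63 (49.5-fold), Siglecg at 3.78 (13.7-fold), Siglec1 at 1.89 (3.71-fold), Siglecf at 1.51 (2.85-fold) and Siglech at 1.03 (2.05-fold). The adjusted p of limma lay between 5.2e-14 for Siglece and 0.000481 for Siglech. The median range of the 6 genes was 2.83, beside 0.71 over all genes. Detection above background was not tested for any of the 6 genes. The folds are therefore folds of intensity, and the lower end of a range need not be transcript. Siglech passed narrowly: its range was 0.88 without DC replicate 1, 0.96 without MF replicate 3 and 0.98 after quantile normalization, each under 2-fold.

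**Figure D1:**
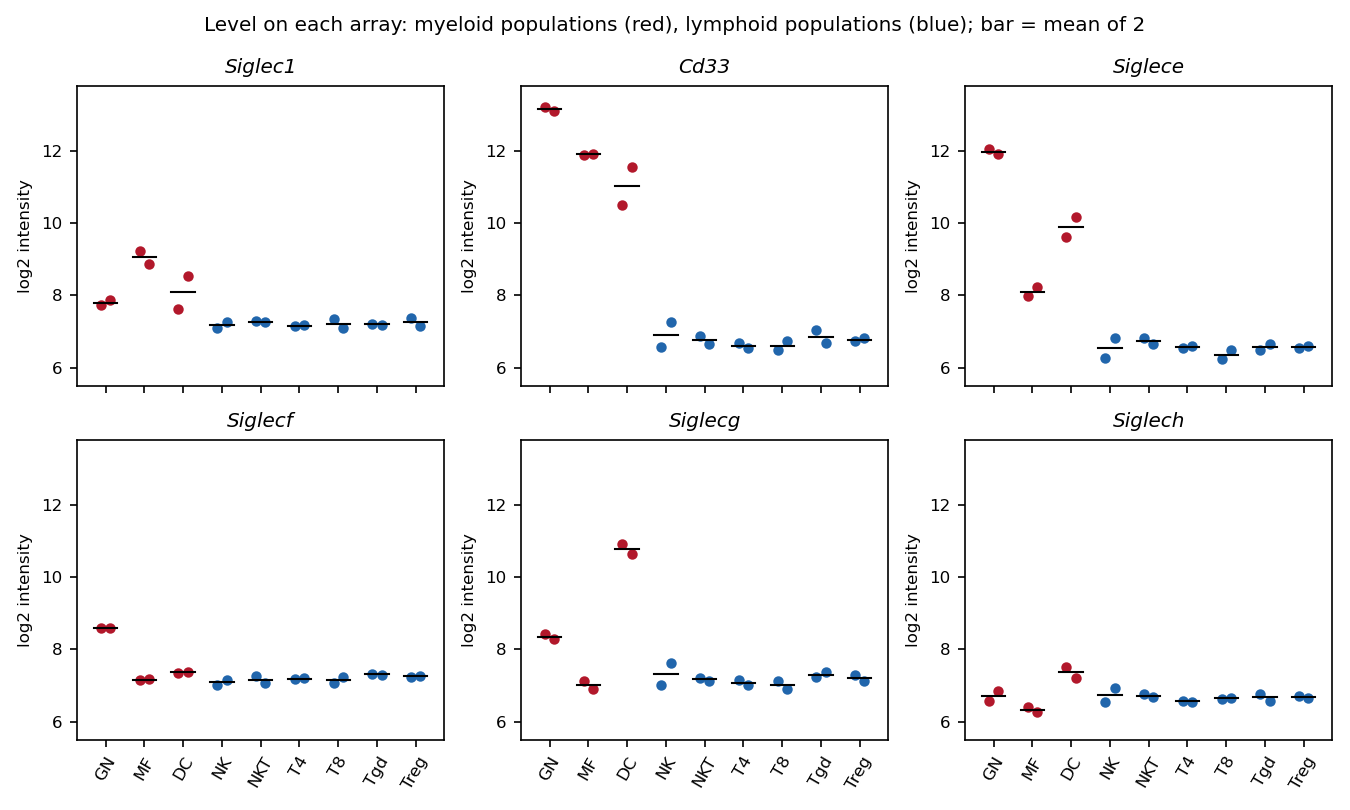
Log2 intensity of each Siglec gene (vertical axis, the same in all panels) on each array of the 9 populations (horizontal axis), with points for arrays and bars for the mean of 2. Within a panel the myeloid populations (red) can lie far apart, as for Cd33 with 13.21 and 13.11 in GN and 10.49 and 11.57 in DC, while its lymphoid arrays (blue) lie between 6.49 and 7.25.

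Among the 6 lymphoid populations no Siglec gene passed, 0 of 6 by limma's moderated F test. At 9.95% of all genes, a count of 0 among 6 is near the background and says nothing particular of these genes. None reached an unadjusted p under 0.05 either, and the lowest unadjusted p was 0.344. The ranges of lymphoid means were 0.11 for Siglec1, 0.18 for Siglech, 0.22 for Siglecf, 0.30 for Siglecg, 0.30 for Cd33 and 0.39 for Siglece. Over the 15 pairs of lymphoid populations, 0 of 90 differences passed, where between 0.876% and 5.54% of all genes passed in these pairs, and 2 of 90 had an unadjusted p under 0.05. A p above the threshold does not show that the levels were alike, and detection above background was not tested in these populations.

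Set against the lymphoid mean, the myeloid mean was at least 2-fold higher for 4 of the 6 genes and lower for none (limma contrast of the 3 myeloid against the 6 lymphoid populations). Of all genes, 6.39% were called higher and 4.41% lower, 10.8% in all. Cd33 averaged 12.03 in the myeloid and 6.76 in the lymphoid populations, a difference of 5.28 ± 0.13 (SE; adjusted p = 3.28e-16). Siglece averaged 9.99 and 6.56, a difference of 3.44 ± 0.09, and Siglecg 8.71 and 7.18, a difference of 1.53 ± 0.08. Siglec1 averaged 8.31 and 7.22, a difference of 1.10 ± 0.10 that fell to 0.95, under 2-fold, without DC replicate 2. Siglecf, at 0.51 ± 0.05, had an adjusted p of 9.24e-08 in limma and was under 2-fold. Siglech was at 0.13 ± 0.07, with a 95% interval of -0.02 to 0.27. The median difference of the 6 genes was 1.31, beside -0.01 over all genes.

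**Figure D2:**
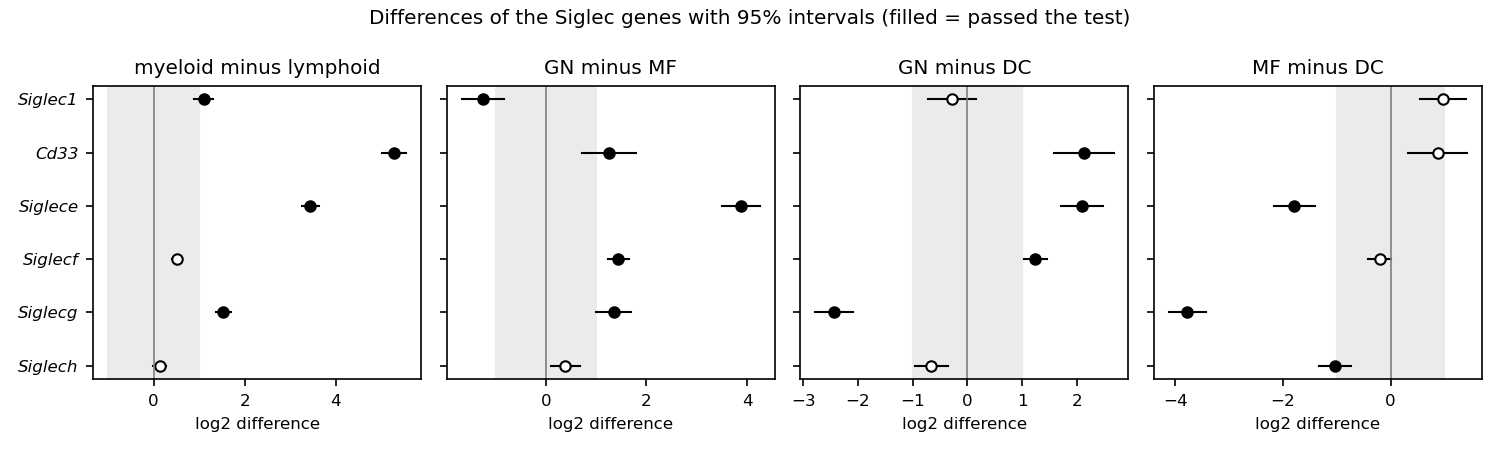
Log2 differences (horizontal axis) of the 6 Siglec genes in 4 limma contrasts, with 95% intervals as lines and a scale of its own in each panel. Filled points passed the test, and the grey band marks differences under 2-fold. In GN minus MF, 4 genes lie to the right of the band and Siglec1 to its left, at -1.25.

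Siglec1, the adhesion receptor of macrophages, was highest in MF. It stood at 7.74 and 7.86 in GN, at 9.23 and 8.87 in MF, and at 7.63 and 8.53 in DC. The lymphoid arrays lay between 7.09 and 7.36 with a median of 7.20. Both MF arrays were above every other array, and the DC arrays straddled those of GN, with replicate 2 high and replicate 1 low.

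In the lymphoid populations Siglec1 averaged 7.19 ± 0.10 in NK, 7.27 ± 0.03 in NKT, 7.16 ± 0.03 in T4, 7.22 ± 0.18 in T8, 7.20 ± 0.01 in Tgd and 7.26 ± 0.14 in Treg (SD, n = 2 arrays each, as for all such values below). MF exceeded DC by 0.97 ± 0.20 (adjusted p = 0.00093 in limma), just under 2-fold. Leaving out single arrays gave differences between 0.52 and 1.42. The difference passed at 1.42 without DC replicate 2 and at 1.15 without MF replicate 3, and it was 0.52 without DC replicate 1 (adjusted p = 0.0245) and 0.79 without MF replicate 2 (adjusted p = 0.022). GN lay below MF, at -1.25 ± 0.20 (adjusted p = 4.28e-05), but after quantile normalization at -0.84, under 2-fold.

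For GN against DC the answer depended on the DC array. GN minus DC was -0.28 ± 0.20, with a 95% interval of -0.71 to 0.15 (adjusted p = 0.236 in limma). It was -0.73 without DC replicate 1 (adjusted p = 0.00152), under 2-fold, 0.17 without DC replicate 2 (adjusted p = 0.398) and 0.02 after quantile normalization. Markers of spleen macrophages were higher on DC replicate 2 by a median of 0.99, for 5 of 10 genes at least 2-fold. Those of monocytes were higher by 1.06, for 3 of 6, and those of NK by 0.81, for 2 of 5. Of all genes, 141 of 19752 were at least 2-fold higher. Siglec1 itself was 0.90 higher on replicate 2. The summed intensity of the spleen macrophage markers was 6000 and 6360 in GN, 27200 and 28200 in MF, 4470 and 8830 in DC, and between 866 and 1700 in the lymphoid populations. Of these 10 genes, 6 were called higher and 3 lower in MF than in DC, against 5.89% and 4.97% of all genes. The 3 were Vcam1, Spic and Slc40a1, lowest in MF at 6.33, 5.29 and 5.85. Slc40a1 averaged 11.74 in GN. The summed intensity of the monocyte markers was 3100 and 3140 in GN, 13900 and 15300 in MF, and 2840 and 5990 in DC. It was between 688 and 3920 in the lymphoid populations. Of the 6 monocyte markers, 2 were called higher and 3 lower in MF than in DC, and Fn1 averaged 13.54 in MF. The part of spleen macrophage and monocyte transcripts in the Siglec1 level of DC was not tested.

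Cd33, a myeloid Siglec, was far above the lymphoid level in all 3 myeloid populations. Its arrays read 13.21 and 13.11 in GN, 11.90 and 11.92 in MF, and 10.49 and 11.57 in DC. The lymphoid arrays lay between 6.49 and 7.25, with a median of 6.71. No myeloid array overlapped a lymphoid one, and the 3 myeloid populations did not overlap each other.

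Among lymphoid cells Cd33 averaged 6.91 ± 0.48 in NK, 6.76 ± 0.16 in NKT, 6.61 ± 0.10 in T4, 6.61 ± 0.17 in T8, 6.86 ± 0.25 in Tgd and 6.77 ± 0.05 in Treg. GN exceeded MF by 1.26 ± 0.26 (adjusted p = 0.000457 in limma) and DC by 2.13 ± 0.26 (adjusted p = 1.81e-06). MF minus DC was 0.88 ± 0.26 (adjusted p = 0.0127), under 2-fold, and it rested on which DC array was used. Without DC replicate 2 the difference was 1.42 and passed (adjusted p = 6.3e-05), and without DC replicate 1 it was 0.33 (adjusted p = 0.342). DC, the lowest myeloid population, stood 4.12 ± 0.26 above NK, the highest lymphoid one (adjusted p = 4.79e-10), a contrast in which 6.42% of all genes were called higher.

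Siglece, an inhibitory receptor of granulocytes and other myeloid cells, was at a different level in each myeloid population. It read 12.05 and 11.92 in GN, 7.99 and 8.22 in MF, and 9.62 and 10.17 in DC, while the lymphoid arrays lay between 6.23 and 6.83 with a median of 6.57. Each myeloid population was apart from the next, and all were above every lymphoid array. In contrast to Cd33, MF stood below DC.

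GN exceeded DC by 2.09 ± 0.18 (adjusted p = 2.81e-08 in limma) and MF by 3.88 ± 0.18 (adjusted p = 7.69e-12), and MF minus DC was -1.79 ± 0.18 (adjusted p = 2.96e-07). MF in turn stood 1.36 ± 0.18 above NKT, the highest lymphoid population (adjusted p = 6.6e-06), where 8.73% of all genes were called higher. Lymphoid means were 6.55 ± 0.39 in NK, 6.75 ± 0.12 in NKT, 6.57 ± 0.03 in T4, 6.35 ± 0.17 in T8, 6.56 ± 0.11 in Tgd and 6.56 ± 0.04 in Treg. All 3 myeloid differences passed without DC replicate 2 as well, at 2.37 for GN minus DC and -1.51 for MF minus DC.

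Since GN markers differed between the DC arrays, the DC levels of the genes that were highest in GN were set beside them. After subtraction of the median lymphoid intensity from both populations, DC replicate 1 held 17.4% of the GN intensity of Siglece and replicate 2 held 26.8%. For Cd33 the shares were 14.7% and 32.4%, and for Siglecf 5.18% and 7.39%. The 9 GN markers held between 1.68% and 12.8% on replicate 1, with a median of 5.64%, and between 15.3% and 33.5% on replicate 2, with a median of 24.9%. On replicate 1 Siglece and Cd33 thus lay above all 9 GN markers, and on replicate 2 within their range, below which Siglecf lay. The part of GN transcripts in the DC levels was not tested.

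**Figure D3:**
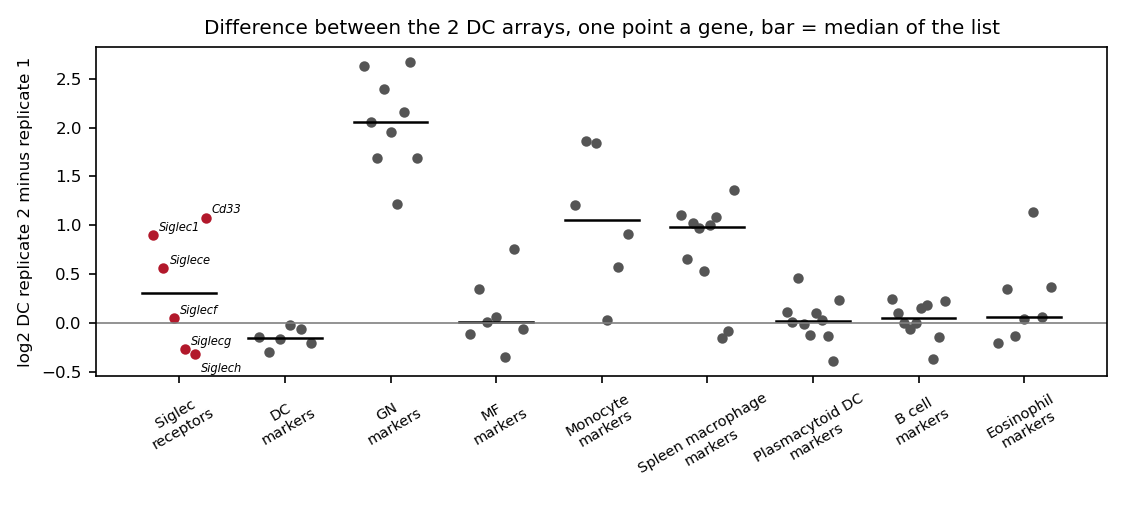
Log2 difference between DC replicate 2 and replicate 1 (vertical axis) for the 6 Siglec genes (red) and for the genes of 8 marker lists (grey), with 1 point per gene and bars for list medians. Cd33, Siglec1 and Siglece are higher on replicate 2, by 1.08, 0.90 and 0.56, and the GN markers have a median of 2.06, while Siglecg and Siglech are lower, at -0.26 and -0.31.

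Siglecf, the eosinophil receptor, was higher in GN than in each of the other populations, and these 8 differences were the ones that passed among 36. It read 8.60 and 8.59 in GN, 7.14 and 7.17 in MF, and 7.33 and 7.38 in DC. The lymphoid arrays ran between 7.02 and 7.31, with a median of 7.22. MF lay inside the lymphoid range, and both DC arrays lay just above it. Outside GN all arrays, between 7.02 and 7.38, lay near the median of all gene values, 7.19. Detection of Siglecf above background was not tested there.

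GN exceeded DC by 1.24 ± 0.10 (adjusted p = 1.48e-08 in limma) and MF by 1.44 ± 0.10 (adjusted p = 1.47e-09). No other neighbours in the order of levels passed: DC, next after GN, stood 0.05 ± 0.10 above Tgd, with a 95% interval of -0.17 to 0.26. The remaining means were 7.09 ± 0.09 in NK, 7.16 ± 0.12 in NKT, 7.19 ± 0.01 in T4, 7.15 ± 0.12 in T8, 7.31 ± 0.01 in Tgd and 7.26 ± 0.02 in Treg. MF minus DC was -0.20 ± 0.10 and did not pass.

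Of 7 measured eosinophil markers, 1 was called higher in GN than in MF and 0 in GN than in DC, where 6.59% and 5.77% of all genes were called higher. That 1 was Ccr3, the eotaxin receptor, at 8.34 in GN, 6.29 in MF and 7.91 in DC. Epx, the eosinophil peroxidase, had means of 6.10, 6.10 and 5.89, and Prg2, the major basic protein, of 6.86, 6.37 and 6.61 in the same populations. Neither passed over the 9 populations, with ranges of 0.33 and 0.56. The summed intensity of the 7 markers was 741 and 817 in GN, 417 and 431 in MF, 589 and 815 in DC, and between 407 and 657 in the lymphoid populations. Its part in the Siglecf level was not tested.

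Shown are the starts of Cd33 and Siglecf, whose upstream windows share a run of 16 bases, in capitals, holding the ETS core GGAAGT. These are the 250 bases before the first RefSeq start listed for each gene, in build GRCm38.p6, at chr7:43533172-43533421 on the minus strand for Cd33 and chr7:43351091-43351340 on the plus strand for Siglecf.
Cd33: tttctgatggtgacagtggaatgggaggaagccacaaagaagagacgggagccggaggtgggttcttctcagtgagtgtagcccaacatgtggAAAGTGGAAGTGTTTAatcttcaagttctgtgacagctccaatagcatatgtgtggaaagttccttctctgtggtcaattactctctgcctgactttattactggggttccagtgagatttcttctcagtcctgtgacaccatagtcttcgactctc
Siglecf: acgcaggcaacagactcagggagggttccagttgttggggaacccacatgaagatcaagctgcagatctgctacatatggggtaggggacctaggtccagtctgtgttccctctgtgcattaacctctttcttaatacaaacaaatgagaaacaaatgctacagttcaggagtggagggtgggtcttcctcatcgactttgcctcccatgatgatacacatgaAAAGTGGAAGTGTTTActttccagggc

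RefSeq windows were matched for 5 of the 6 genes, all but Siglec1. No other pair among them shared 15 bases or more. Siglece, highest in GN like Cd33 and Siglecf, shared no such run with them and held no ETS core. Runs shared by the windows of other genes were not counted, so how common such a run is was not tested. The run began 157 bases before the start of Cd33 and 27 bases before that of Siglecf. Short motifs were searched on both strands of these windows, and a match describes letters and not a site. The ETS core GGAAGT was found in Cd33, Siglecf and Siglech and in 19.7% of 32851 promoter windows of the same length. TGTGGT (RUNX) was found in Cd33 and Siglech and in 14.0% of windows, and TTGCNNAA (C/EBP) in Siglech and in 9.56%. TTCNNNGAA (GAS, the element of IFNg signalling) was found in Siglech and in 7.02%, and the ISRE in none of the 5 and in 2.98%. The 2 genes with the shared run differed in MF, where Cd33 read 11.90 and 11.92 and Siglecf was inside its lymphoid range.

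Siglecg, the inhibitory Siglec of B cells, was highest in DC and second in GN. It read 8.42 and 8.28 in GN, 7.11 and 6.89 in MF, and 10.91 and 10.65 in DC, with lymphoid arrays between 6.91 and 7.61 around a median of 7.13. MF overlapped the lymphoid arrays, and neither GN nor DC did.

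GN lay below DC, at -2.43 ± 0.16 (adjusted p = 1.34e-09 in limma), and MF further below, at -3.78 ± 0.16 (adjusted p = 4.1e-12). GN exceeded MF by 1.35 ± 0.16 (adjusted p = 1.57e-06) and NK, the highest lymphoid population, by 1.04 ± 0.16 (adjusted p = 3.35e-05), where 7.42% of all genes were called higher. The difference from NK was under 2-fold without NK replicate 2, at 0.74, without GN replicate 1, at 0.97, and with the replicate number as a block, at 0.96. NK averaged 7.31 ± 0.43, with 7.01 on replicate 2 and 7.61 on replicate 3. The others averaged 7.17 ± 0.06 in NKT, 7.08 ± 0.08 in T4, 7.01 ± 0.15 in T8, 7.30 ± 0.09 in Tgd and 7.21 ± 0.13 in Treg.

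B cell markers were measured beside Siglecg. Of 10, 4 were called lower and 1 higher in MF than in DC, against 4.97% and 5.89% of all genes, and 6 were called lower in GN than in DC, against 11.1%. Ms4a1, which encodes CD20, averaged 5.70 in GN, 5.56 in MF and 9.62 in DC. Bank1, the 1 called higher in MF, averaged 8.47 in GN, 10.52 in MF and 9.50 in DC. Pax5, the B cell factor, averaged 7.05, 6.59 and 7.09 in these populations and did not pass over the 9 populations. The summed intensity of the 10 markers was 1160 and 1200 in GN, 2170 and 2300 in MF, 3220 and 3440 in DC, and between 761 and 2480 in the lymphoid populations. Among lymphoid cells Cd79b was highest in Tgd, at 10.42. The part of B cell transcripts in the DC level was not tested.

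Siglech, the receptor of plasmacytoid dendritic cells, was highest in DC, with the narrowest range of the 6 genes. Its arrays read 6.57 and 6.84 in GN, 6.40 and 6.25 in MF, and 7.51 and 7.20 in DC. The lymphoid arrays were between 6.53 and 6.94, with a median of 6.65. Both DC arrays lay above all others, both MF arrays below all others, and GN among the lymphoid ones. The DC arrays lay just above the median of all gene values, 7.19, and all other arrays, from 6.25 upwards, lay under it. Detection of Siglech above background was not tested.

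MF minus DC was -1.03 ± 0.14 (adjusted p = 1.01e-05 in limma), and it was under 2-fold without DC replicate 1, at -0.88, without MF replicate 3, at -0.96, and after quantile normalization, at -0.98. It was the 1 difference of 36 between populations that passed for Siglech. DC exceeded NK, next in order, by 0.62 ± 0.14 (adjusted p = 0.00171), under 2-fold, and GN minus DC was -0.66 ± 0.14. Lymphoid means were 6.74 ± 0.28 in NK, 6.72 ± 0.06 in NKT, 6.56 ± 0.03 in T4, 6.64 ± 0.01 in T8, 6.67 ± 0.13 in Tgd and 6.69 ± 0.05 in Treg.

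Of 10 measured plasmacytoid DC markers, 4 were lower and 0 higher in MF than in DC, and 4 were lower and 0 higher in GN than in DC, where 4.97% and 11.1% of all genes were called lower. The 4 lower in MF were Spib, Ccr9, Lag3 and Cd300c, and the 4 lower in GN were Spib, Tcf4, Ccr9 and Lag3. Lag3, an inhibitory receptor also known from T cells, averaged 6.93 in GN, 6.51 in MF and 8.41 in DC. Tcf4, another factor of the lineage, averaged 7.73 in GN, 9.57 in MF and 9.51 in DC. The summed intensity of the list was 2160 and 2060 in GN, 2300 and 2160 in MF, 3430 on both DC arrays, and between 1980 and 7250 in the lymphoid populations, where Ccr9, a homing receptor that T cells share, reached 12.22 in Tgd. The part of plasmacytoid cells in the DC level of Siglech was not tested.

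Within the myeloid cells the 6 genes fell into different orders. In GN minus MF, 4 were called higher and 1 lower, against 6.59% and 14.1% of all genes (20.7% in all), with a median difference of 1.30 beside 0.20 over all genes. In GN minus DC, 3 were higher and 1 lower, against 5.77% and 11.1% of all genes (16.9% in all), with a median of 0.48 beside 0.18. In MF minus DC, 3 were lower and 0 higher, against 4.97% and 5.89% (10.9% in all), with a median of -0.62 beside 0.01. These contrasts share their arrays, so their calls are not independent. Over all 36 pairs of populations, between 0.876% and 21.7% of all genes passed. Of 48 pairs next to each other in the order of a Siglec gene's levels, 8 passed. That order comes from the same values, so no share of all genes is comparable with this count. Each of those 8 had a myeloid population on at least 1 side, which had to follow, since no pair of lymphoid populations passed for any Siglec gene.

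Over the 9 population means, Siglece and Cd33 had a Pearson's r of 0.91, Siglecg and Siglech 0.90, Siglece and Siglecf 0.85, and Siglec1 and Cd33 0.81. Siglec1 and Siglech stood at -0.11. These values describe 9 points that share arrays and normalization, 6 of them lymphoid populations close to each other, so they rest on the order of GN, MF and DC.

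The genes whose 9 means were most like those of a Siglec gene were found by the same correlation. For Cd33 they were Slfn4 (r = 0.999), Tnfaip2 (0.996) and Sort1 (0.996), all highest in GN and next in MF. For Siglece they were Lilra6 (0.995), Nod2 (0.994) and Taldo1 (0.994), highest in GN and next in DC. For Siglecf they were Ncam1 (0.996), Rab44 (0.996) and Calr4 (0.995), all highest in GN. For Siglec1 they were Sel1l3 (0.994), Map3k20 (0.992) and Abca9 (0.992), highest in MF and next in DC. For Siglecg they were Slc6a12 (0.997), Ceacam16 (0.996) and Tns3 (0.992), highest in DC and next in GN. For Siglech they were Htr7 (0.964), Kcnj10 (0.959) and Relb (0.959), highest in DC.

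Of the other Siglec genes of the mouse, Cd22 and Mag passed over the 9 populations and Siglec15 did not. Cd22, the other inhibitory Siglec of B cells, averaged 7.11 ± 0.03 in GN, 6.59 ± 0.01 in MF and 10.17 ± 0.14 in DC, with 8.25 ± 0.13 in NK and 8.02 ± 0.20 in Tgd. GN minus DC was -3.06 ± 0.15 and MF minus DC -3.58 ± 0.15 (adjusted p = 3.91e-11 and 3.65e-12 in limma). Mag, the myelin glycoprotein, was highest in NK at 7.81 ± 0.06, against 6.90 ± 0.23 in GN, the next population. Siglec15 ranged over 0.31, with means between 7.78 and 8.09.

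Signalling partners of Siglecs differed as well, 13 of 17 measured genes over the 9 populations, against 39.0% of all genes. Of the 17, 7 were higher and 3 lower in the myeloid mean, against 6.39% and 4.41% of all genes. The partners with the widest ranges were Tyrobp, Btk, Syk and Fyn. Tyrobp, the adaptor of Siglech, averaged 12.67 ± 0.02 in GN, 12.56 ± 0.10 in MF, 12.11 ± 0.10 in DC and 12.52 ± 0.02 in NK, and 6.66 ± 0.09 in Treg, its lowest population. It was thus high in GN, MF and NK too, where Siglech lay below its own DC level of 7.36.

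Syk, the kinase that acts downstream of Tyrobp, averaged 11.90 ± 0.04 in GN, 10.43 ± 0.03 in MF and 10.61 ± 0.08 in DC, and 10.71 ± 0.03 in NK. Btk, a kinase of B and myeloid cells, was higher in the myeloid mean by 4.63 ± 0.06, and Fyn, a Src family kinase, was lowest in GN at 6.37 ± 0.29 and highest in NK at 11.60 ± 0.21. Of the ITIM phosphatases, Ptpn6 was higher in the myeloid mean by 1.13 ± 0.06 (adjusted p = 1.05e-11 in limma), with 12.04 ± 0.13 in GN and 10.16 ± 0.16 in NK. Ptpn11 ranged over 0.43 and Inpp5d, a lipid phosphatase, over 0.83, both under 2-fold. The list had a median myeloid difference of 0.26, beside -0.01 over all genes.

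Genes that make, attach or remove sialic acid gave 20 of 35 that passed over the 9 populations, against 39.0% of all genes. In GN minus DC, 3 were higher and 11 lower, against 5.77% and 11.1% of all genes, and the list median was -0.13 beside 0.18. In GN minus MF, 1 was higher and 10 lower, against 6.59% and 14.1%, and the list median was -0.09 beside 0.20. In MF minus DC, 5 were higher and 2 lower, against 5.89% and 4.97%. Gne, the first enzyme of sialic acid synthesis, averaged 7.82 ± 0.02 in GN, 8.91 ± 0.01 in MF and 9.16 ± 0.06 in DC.

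St3gal5, the GM3 synthase, averaged 9.70 ± 0.17 in GN, 10.56 ± 0.03 in MF and 7.91 ± 0.18 in DC. St8sia6, an alpha-2,8-sialyltransferase, averaged 6.47 ± 0.16 in GN, 10.77 ± 0.19 in MF and 10.69 ± 0.22 in DC. St3gal6 was lowest in MF at 6.57 ± 0.25 and highest in NK at 10.92, and St8sia1, the GD3 synthase, was lowest in MF at 6.26 ± 0.05 and highest in T4 at 10.52 ± 0.09. Siae, a sialic acid esterase, was lower in GN, at -1.56 against DC and -2.22 against MF. These genes thus had no single order over the populations.

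Of 10 carriers and ligands of Siglecs, 8 passed over the 9 populations, against 39.0% of all genes. Cd24a, a glycoprotein ligand of Siglecg, averaged 12.36 ± 0.16 in GN, 11.71 ± 0.06 in MF and 11.61 ± 0.20 in DC, and was lowest in NKT at 6.07 ± 0.51. Spn (CD43), a ligand of Siglec1, was lowest in MF at 6.99 ± 0.04, where Siglec1 was highest, and was highest in NK at 10.59 ± 0.24. Vcan, a proteoglycan, was highest in MF at 8.82 ± 0.09. Lgals3bp, a secreted glycoprotein, was lowest in GN at 9.76 ± 0.06 and highest in MF at 12.37 ± 0.05. Lower and higher levels of receptor and ligand are levels of transcripts, and binding was not measured.

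**Figure D4:**
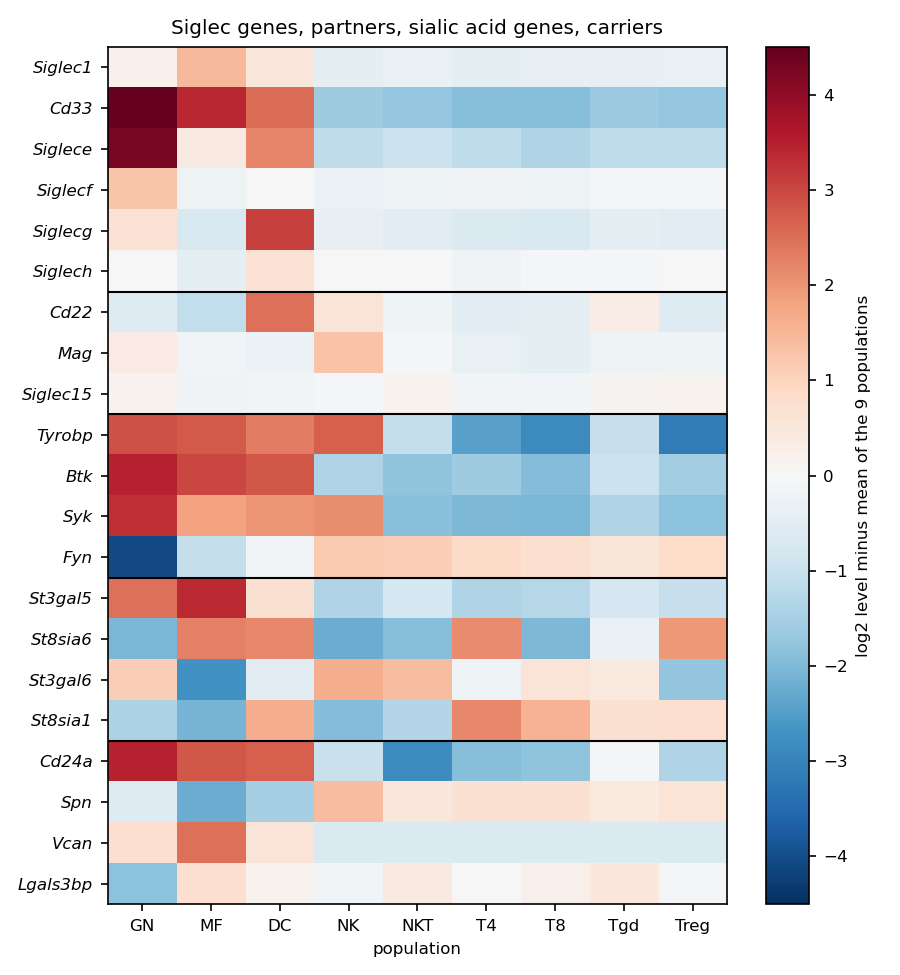
Log2 level of each gene minus its own mean over the 9 populations (colour, -4.5 to 4.5), for the 6 Siglec genes, the other 3 Siglecs, and the 4 genes of widest range among signalling partners, sialic acid genes and carriers, divided by lines. Tyrobp is high in GN, MF, DC and NK, and Cd22, like Siglecg, is highest in DC.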

How the data were processed

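The deposited values are intensity values, not on a log scale, which the authors made with Affymetrix Power Tools and RMA, per the submitters' processing notes. Versions, and whether all arrays were normalized together, are not given in the sources used here. No value of the 24922 probe sets was at or below 0, and log2 was taken before every test. GEO's platform annotation gave the gene names. Entrez numbers brought 21347 of 21425 single-symbol probe sets to current RefSeq symbols. For genes with several probe sets the one with the highest mean was used.

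limma 3.58.1 in R 4.3.3 (lmFit, eBayes with a mean-variance trend) was fitted on all 18 arrays and 19752 genes, with 1 mean per population and no covariate (9 residual and 7.69 prior degrees of freedom), and was tested on simulated data. The tests were F tests, 4 contrasts and all 36 pairs, with Benjamini-Hochberg adjustment over all genes and 2-fold as the minimum. Every adjusted p is from limma.

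The Siglec genes and all lists were chosen with earlier results of these data known. Partners were named by rule: the 4 passing genes of each list with the widest range, and for each Siglec gene the 3 passing genes of highest correlation. Ptpn6, Ptpn11, Inpp5d, Gne, Siae and the marker genes given as examples were chosen after their values were seen. Alternatives were quantile normalization, no trend, no dim genes, mean of probe sets, no minimum fold, a replicate block and leaving out each array.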

Additional observations from a re-analysis of the deposited data

How the results depend on the processing

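Over the alternatives the members' differences kept their direction wherever they passed, and of 864 results 8 lost and 8 gained their call. Many of these could hardly change, so the counts do not measure how stable the calls were. Each Siglec gene had 1 probe set, and the settings without trend and without dim genes leave every difference as it is. Most arrays left out are not part of a given contrast, and ranges have no direction. The count for MF against DC was 3, where 10.9% of all genes were called, and it was 5 with no minimum fold. Shares of all genes under the alternatives are not given here, so the counts under them have no background to be read against. Leaving out single arrays gave between 2 and 5 for MF against DC (5 without DC replicate 2), between 3 and 4 for the myeloid contrast, between 5 and 6 over the 9 populations, 4 for GN against DC, 5 for GN against MF, 0 over the lymphoid populations, and between 7 and 10 neighbouring pairs. With an array left out, the lone array of its population is assumed to vary like the other populations. The 5 genes without DC replicate 2 include Siglec1 and Cd33, both at 1.42.

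With the replicate block the counts were 6 over the 9 populations, 0 over the lymphoid ones, 4 for the myeloid contrast, 3 for MF against DC, 4 for GN against DC, 5 for GN against MF, and 7 neighbouring pairs, so it changed no count by over 1.5 times. The numbers were not taken to pair the arrays. Differences between arrays correlated between -0.12 and 0.09 over 3 pairs of populations numbered 1 and 2. Over 15 pairs numbered 2 and 3 they correlated between -0.16 and 0.47, and 8 of the 15 were over 0.1. What arrays of the same number share was not tested. The neighbouring pair lost under the block was GN over NK for Siglecg, at 0.96, as it was without GN replicate 1 and without NK replicate 2. That there are 2 arrays per population limits every comparison.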
